A study of Homo sapiens with 9 samples.

Results

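The custom array used for ALL-SIL, an established T-ALL (T cell acute lymphoblastic leukemia) line, carries 23042 custom probes for long noncoding RNAs among its 57176 probes. All but 52 of them carry a transcript name, taken from Ensembl, the public gene annotation, whose transcript names begin with ENST, or from a catalogue of assembled transcripts, whose names begin with TCONS, the prefix that the Cufflinks program gives to transcripts it builds from RNA sequencing reads. For 2789 custom probes the array gives a name of each kind, and each of them is the one custom probe of its Ensembl transcript and of its assembled transcript. The members described here are the 840 of these 2789 probes that Feature Extraction, Agilent's image analysis software, marked as well above background on at least 3 of the 9 arrays. They are chosen by name and by detection. The siRNA arrays count toward detection, so a dim probe that rises with an siRNA can become a member through them. The files pair these probes with identifiers but with no gene symbol, and 0 of the 2789 Ensembl transcripts were found in the gene table used for names, so the members are named below by their Ensembl transcript. Probe sequences and genome positions are not given here, and no symbol classes such as antisense or host transcripts could be formed.

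Before RNA was collected, the cells had received by electroporation an siRNA directed at *PHF6*, siRNA1 or siRNA2, or a control siRNA. Each group had 3 samples with the numbers 1 to 3, which the methods describe as independent. Most labels give collection at 96 h and a free-text description gives 72 h, and which of the siRNA products in the methods is siRNA1 is not stated. All 9 samples are 1 cell line, so the spread between them is that of cultures of this line and not of patients. Total RNA was labelled with Cy3 and each sample was hybridized to its own array. Replicates 1 and 2 of all groups were on one slide and replicate 3 of all groups on another, so that slide and group are not confounded.

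Long noncoding RNAs are transcripts that are not known to encode a protein. Some act at chromatin or at a neighbouring gene, others bind proteins or other RNAs in the nucleus or cytoplasm, and for many no function is known. They are usually less abundant and more restricted to particular cell types than mRNAs. A transcript found in a curated annotation as well as in an assembly from sequencing reads has been described by more than one route, which says nothing of its level in a given cell. *PHF6* encodes a nuclear and nucleolar PHD finger protein that is often inactivated in T-ALL. The comparison asks which of these transcripts were detected in ALL-SIL and whether their level changed when *PHF6* was lowered.

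The siRNA target was lower on every siRNA array. The level of *PHF6* on the normalized log2 scale was 11.06, 11.15 and 10.85 with the control siRNA, 9.38, 9.69 and 9.12 with siRNA1, and 9.19, 9.27 and 9.13 with siRNA2 (replicates 1, 2 and 3; adjusted p = 0.00235 for both siRNAs against control in limma without a replicate term). Of 14 genes listed for T lymphoblasts 13 had a probe, of which 12 were detected on all 9 arrays. *TAL1* was detected on none, whereas *TLX1*, another T-ALL oncogene, was at 10.97 to 11.33. Among genes of other blood lineages, *CD79A*, *CD14* and *NKG7* were detected on all 9 arrays, while *HBB* and *KLRD1* were detected on none.

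Detection was less frequent among the probes with a name of each kind than among the other custom probes. Of the 2789 probes, 840 (30.1%) were detected on at least 3 arrays. This compares with 42.7% of 9636 custom probes that carry an Ensembl name only, 40.1% of 10565 that carry an assembled name only, and 71.4% of the 34134 Agilent catalogue probes, most of which target mRNAs. These shares describe the probes of one array design and were not tested, since probes are not replicates. Detection was mostly all or none, with 532 of the 2789 probes (19.1%) detected on all 9 arrays and 1571 (56.3%) on none. Each count between 2 and 8 arrays held 40 to 90 probes.

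On single arrays, 26.3%, 24.2% and 29.7% of the 2789 probes were detected with the control siRNA, 28.3%, 23.6% and 31.7% with siRNA1, and 28.3%, 30.7% and 27.6% with siRNA2, in the order of replicates 1 to 3. The 3 groups overlapped, and the lowest and the highest array were of the same group, siRNA1. Over all probes of the array the number detected was also lowest on siRNA1 replicate 2, at 29694, and highest on siRNA1 replicate 3, at 33746. Of the 840 members, 622 were detected on siRNA1 replicate 2 and 781 on siRNA1 replicate 3. One member had a detected spot on all 6 siRNA arrays and on no control array, ENST00000502156. Its mean level was 5.13 with the siRNAs and 4.68 in the control samples, 1.37-fold apart on the normalized log2 scale, which flattens toward background. The groups overlapped, with siRNA2 replicate 1 at 4.60 and the control arrays at 4.65 to 4.70. Another, ENST00000456248, was detected on all 3 control arrays and on no siRNA array, with mean levels of 4.94 and 4.70, 1.18-fold apart on that scale. Its groups overlapped too, with siRNA1 replicate 2 at 4.87 and control replicate 1 at 4.83. Both became members only through the group in which they were brighter and were picked for this pattern, so their differences are a description, with no test.

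The threshold cut through a continuous range of dim spots. The 54 probes detected on exactly 3 arrays had a median spot intensity, averaged over the arrays, of 37.8, against 36.1 for the 90 probes detected on exactly 2 arrays and 29.0 for the 1571 detected on none. Their levels on the normalized log2 scale ran from 4.49 to 5.06 inside the threshold and from 4.19 to 4.78 outside it. The brightest probes of either side were bright on a single array or under a single siRNA. ENST00000442579, detected on 3 arrays, was at 7.17 on siRNA1 replicate 3 and at 4.52 to 5.19 on the other arrays. ENST00000415465, detected on 2 arrays and so not a member, was at 7.18 on siRNA2 replicate 3 and at 4.25 to 4.82 elsewhere.

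Most members were dim. The median intensity of their spots was 50.5 to 69.5 on the 9 arrays, where the negative control spots had medians of 23.0 to 27.5. On the normalized scale, a generalized log2 that approaches log2 for bright spots and flattens toward background, the lower quartile of the members was 4.90 to 5.13, the median 5.43 to 5.69 and the upper quartile 6.62 to 6.81. The median over the members was 5.52 ± 0.14 in the control samples (mean ± SD of 3 arrays), 5.65 ± 0.05 with siRNA1 and 5.59 ± 0.09 with siRNA2. The ranges of the 3 groups overlapped. The brightness of a spot also depends on its probe sequence, so the levels of different probes are not set against each other as amounts of RNA. Within one probe, fewer cells that express a transcript and less RNA per cell cannot be told apart in bulk RNA.

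The members varied more with the replicate number than with the group. In the 836 members with a value on every array, the median share of the sum of squares was 49.6% for the replicate number, 19.3% for the group and 24.9% for what was left, and the replicate number took the larger share in 607 of them. Over all tested probes the corresponding shares were 50.2%, 19.9% and 21.5%. The median SD within a group was 0.242 for the members and 0.217 for all tested probes. A fit with the replicate number as a term therefore had a smaller residual than one without it, and the called members of each comparison are counted with both fits.

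In the fit with the replicate number, 20 of the 840 members (2.38%) passed an adjusted p of 0.05 for both siRNAs against control, beside 2.73% of all 33595 tested probes. Of these, 17 were higher (2.02% of the members, against 1.88% of all tested probes) and 3 were lower (0.357%, against 0.854%). The members were therefore called about as often as the array as a whole. Of the 20, 16 were detected on all 9 arrays. The other 4, all higher, reached the detection threshold only with their siRNA arrays. In the fit without the replicate number 0 of the 840 members passed, beside 0.00893% of all probes, with a smallest adjusted p of 0.317, and 56 members had an unadjusted p under 0.05 (6.67%, against 7.37%). The adjusted p of the 20 called members was 0.000966 to 0.0495 with the replicate number and 0.317 to 0.782 without it. The split of 17 higher and 3 lower depended on the normalization. It was 12 and 5 with the table normalized by the authors, 10 and 8 after normexp correction and quantile normalization, 5 and 3 with VSN on the processed signal, and 4 and 2 with the processed signal scaled to the 75th percentile.

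The number of calls moved when single arrays were left out. Each replicate number has 1 control array, and without it that number gives no difference from control. Leaving out a control array thus removes more than leaving out an siRNA array. Without control replicate 1, or without control replicate 2, 1 of the 20 members remained called, ENST00000491608 (0.119% of the members, against 0.173% and 0.164% of all tested probes). Without siRNA1 replicate 1, 2 or 3 the count was 6, 4 and 8 (0.714%, 0.476% and 0.952% of the members, against 0.836%, 0.574% and 0.979% of all tested probes). Without siRNA2 replicate 1 it was 7 (0.833%, against 0.682%). Without siRNA2 replicate 2 it was 27 (3.21%, against 2.29%), without siRNA2 replicate 3 it was 14 (1.67%, against 2.76%) and without control replicate 3 it was 24 (2.86%, against 3.6%), and in each of these 12 were among the 20. Without replicate 1 of all groups 1 member was called (0.119%, as over all tested probes), and without replicate 2 of all groups 0 were (0.0149% of all tested probes), the smallest adjusted p in limma being 0.0881. On the slide that holds replicates 1 and 2, 15 members were called (1.79%, against 2.08%), 8 of which were among the 20. The other slide holds 1 array per group and gives no test.

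The 2 siRNAs were also set against the control separately. With siRNA1, 8 members passed (0.952%, against 0.941% of all probes), 6 of them higher (background 0.521%) and 2 lower (background 0.42%). With siRNA2, 9 members passed (1.07%, against 1.6%), 7 higher (background 1.03%) and 2 lower (background 0.563%). Both comparisons use the same 3 control samples. With 1 array left out the count was 1 to 14 for siRNA1 and 1 to 17 for siRNA2. It was 1 for each siRNA without control replicate 1 or without control replicate 2, and 14 and 17 without control replicate 3 (1.67% and 2.02% of the members, against 2.02% and 2.46% of all tested probes). Without the replicate number 0 members passed for either siRNA, the smallest adjusted p being 0.0589 for siRNA1 and 0.424 for siRNA2, and 55 and 53 members had an unadjusted p under 0.05 (6.55% and 6.31%, against 5.91% and 5.9% of all tested probes).

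The members were also counted without a model. In 19 members all 6 siRNA arrays lay above the 3 control arrays, and in 10 all 6 lay below, 2.26% and 1.19% of the members beside 1.92% and 1.96% of all tested probes. Set against the control of its own replicate number, each of the 6 siRNA arrays was higher in 105 members (12.5%, background 10.9%) and lower in 59 (7.02%, background 10.5%).

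ENST00000491608 (TCONS_00007816, probe CUST_17829_PI427704219) fell most in the mean of both siRNAs. Its level was 10.29, 9.73 and 10.39 with the control siRNA, 9.43, 8.76 and 9.38 with siRNA1, and 8.81, 8.41 and 9.16 with siRNA2, in the order of replicates 1 to 3. All 6 siRNA arrays lay below the 3 control arrays, and the difference from the control of the same number was −1.17, −1.14 and −1.12 in replicates 1, 2 and 3. The fitted change was −1.15 ± 0.0905 (log2, SE), a 2.21-fold lower level, with an adjusted p of 0.000966. It was −0.95 with siRNA1 and −1.34 with siRNA2, and the difference between the siRNAs did not pass (adjusted p = 0.335). Replicate 2 was lower than the other replicates in every group, and without the replicate number the adjusted p was 0.34. It was the only member whose mean change over both siRNAs exceeded 1 on the log2 scale, which 66 of all tested probes did, and over the alternatives its change stayed between −1.20 and −1.07.

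The other fall that met the rule for naming, a call for both siRNAs with the same direction under each siRNA and in every replicate number and detection on every array of the brighter group, was ENST00000421642 (TCONS_00027951, probe CUST_23030_PI427704219). It was at 8.04, 8.06 and 8.66 in the control samples, 7.59, 7.63 and 8.18 with siRNA1, and 7.60, 7.71 and 8.41 with siRNA2. Each siRNA array was below the control of its own number, but the groups overlapped because replicate 3 was higher throughout. The fitted change was −0.40 ± 0.0819 (adjusted p = 0.0387, and 0.743 without the replicate number).

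Among the members that rose, 16 of 17 met the rule, and their changes were small, from 0.37 to 0.73 for all 17. In the 8 largest the siRNA arrays were above the control of their own replicate number in 6 of 6 arrays. ENST00000420956 (TCONS_00021571, probe CUST_6054_PI427704219) was at 6.24, 6.97 and 6.11 in the control samples, 7.30, 7.80 and 6.57 with siRNA1, and 7.26, 7.80 and 6.29 with siRNA2. The rise was 1.04, 0.83 and 0.32 in replicates 1, 2 and 3, so that replicate 3 moved least and the groups overlapped. The fitted change was 0.73 ± 0.129 (adjusted p = 0.0247, and 0.701 without the replicate number).

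ENST00000455711 (TCONS_00027838, probe CUST_14875_PI427704219) was at 7.02, 6.84 and 6.66 in the control samples, 7.73, 7.84 and 7.04 with siRNA1, and 7.98, 7.74 and 7.05 with siRNA2. All siRNA arrays lay above all control arrays, although the closest values, 7.02 and 7.04, nearly met, and replicate 3 again moved least. The fitted change was 0.72 ± 0.117 (adjusted p = 0.0198), with 0.70 for siRNA1 and 0.75 for siRNA2. Without the replicate number the adjusted p was 0.648.

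ENST00000505978 (TCONS_00025189, probe CUST_17020_PI427704219) was at 6.43, 6.20 and 6.32 in the control samples, 7.35, 6.79 and 6.98 with siRNA1, and 7.57, 6.74 and 6.68 with siRNA2. The groups did not overlap, and the fitted change was 0.70 ± 0.123 (adjusted p = 0.0243, and 0.647 without the replicate number). ENST00000437782 (TCONS_00028032, probe CUST_1896_PI427704219) was at 6.81, 6.77 and 6.14 in the control samples, 7.61, 7.43 and 6.58 with siRNA1, and 7.80, 7.23 and 6.57 with siRNA2. Its replicate 3 was lower in every group, so that the groups overlapped, and the fitted change was 0.63 ± 0.109 (adjusted p = 0.0241, and 0.694 without the replicate number).

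The remaining risers among the 8 were dimmer or moved less. ENST00000442403 (TCONS_00029359, probe CUST_12257_PI427704219) was at 4.93, 4.77 and 4.73 in the control samples, where 1 of 3 arrays was well above background. It was at 5.26, 5.52 and 5.37 with siRNA1 and at 5.52, 5.56 and 5.40 with siRNA2, all 6 above background. The groups did not overlap, and its fitted change was 0.63 ± 0.0920 (adjusted p = 0.0140, and 0.317 without the replicate number). The size of this change was 0.21 to 1.32 over the alternatives in background treatment, normalization and samples. ENST00000430134 (0.59 ± 0.114, adjusted p = 0.0326) was at 4.90 to 5.0 in the control samples and at 4.93 to 5.84 with the siRNAs. ENST00000455718 (0.55 ± 0.119, adjusted p = 0.0445), also above background on 1 of 3 control arrays, was at 4.63 to 4.80 and at 4.84 to 5.54. Over the alternatives the change of ENST00000430134 was 0.25 to 0.84, and that of ENST00000455718 was 0.22 to 1.24, with the call lost in 14 and 16 of them. The other named rises lost their call in 10 to 14 alternatives. Of the named falls, ENST00000421642 lost its call in 16 and ENST00000491608 in 3. ENST00000442403 and ENST00000455718 became members only through their siRNA arrays, so their calls follow in part from the detection threshold and support nothing. ENST00000418607 (0.51 ± 0.0959, adjusted p = 0.0312) was brighter, at 7.70 to 8.54 in the control samples and 8.08 to 9.13 with the siRNAs, and these ranges overlapped.

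The other 9 risers changed by 0.37 to 0.50 and are named after their values were seen, to complete the list. They were ENST00000444327, ENST00000510261, ENST00000424663, ENST00000444744, ENST00000419272, ENST00000503568, ENST00000421581, ENST00000453953 and ENST00000451217. ENST00000421581 was detected on 2 of 3 siRNA1 arrays and on 1 of 3 control arrays. ENST00000424663 was detected on 2 of 3 control arrays, and the others here on all 9. ENST00000421581 and ENST00000424663 also reached the detection threshold only with their siRNA arrays, so the same limit applies to their calls.

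A single member differed between the siRNAs by a test of that difference (1 of 840, 0.119%, beside 0.0387% of all tested probes). ENST00000511677 (TCONS_00019099, probe CUST_22178_PI427704219) was at 6.45, 6.96 and 6.51 with the control siRNA, 5.05, 5.50 and 4.93 with siRNA1, and 6.59, 6.76 and 6.75 with siRNA2. All siRNA1 arrays were below all others, and the siRNA2 arrays lay within the range of the control arrays. The change was −1.48 with siRNA1 (adjusted p = 0.00132) and 0.06 with siRNA2 (adjusted p = 0.823), and the difference between siRNA2 and siRNA1 was 1.54 ± 0.119 (adjusted p = 0.0048, and 0.0515 without the replicate number). Its call for both siRNAs together, a change of −0.71 with an adjusted p of 0.0138, is the mean of these unlike effects. The number of members with an unadjusted p under 0.05 between the siRNAs was 24 (2.86%, against 2.49% of all tested probes) without the replicate number, where 0 passed after adjustment.

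ENST00000435542 (TCONS_00000718, probe CUST_6282_PI427704219) was detected on the 3 siRNA1 arrays and on no other array. It was at 5.49, 7.13 and 5.89 with siRNA1, at 4.46, 4.63 and 4.33 in the control samples, and at 4.25, 4.29 and 4.74 with siRNA2. The siRNA1 level was at least 3.12-fold above control, taking for each control array the higher of its own value and the lowest level of any probe well above background there, and the value of replicate 2 was the highest. It became a member only through the siRNA1 arrays, so its place among the 8 calls for siRNA1 follows in part from the detection threshold and supports nothing. ENST00000457003 was the other member called for one siRNA and not for both together. It was at 9.09, 8.51 and 9.23 in the control samples, at 8.81, 8.18 and 9.16 with siRNA1, and at 8.39, 8.08 and 8.80 with siRNA2. The change was −0.52 with siRNA2 (adjusted p = 0.0479) and −0.22 with siRNA1 (adjusted p = 0.282).

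Over all 840 members the difference from control leaned upward, by little. It was above 0 in 495 and below 0 in 345 members (58.9% higher, against 50.5% of all tested probes), with a median of 0.045 and quartiles of −0.085 and 0.176, against a median of 0.002 for all tested probes. The median was 0.056 for siRNA1 and 0.031 for siRNA2. By replicate number the median was 0.040, 0.113 and −0.010, so that replicate 3 showed no upward lean. On single arrays the median difference from the control of the same number was 0.06, 0.13 and −0.01 for siRNA1 and −0.01, 0.10 and −0.01 for siRNA2. The control and siRNA1 arrays of replicate 2 also had the fewest detected members, 639 and 622, and siRNA1 replicate 2 had the highest fitted background, 15 intensity units against 8.44 to 13.9 on the other arrays. Their part in the lean was not tested. The siRNA arrays also count toward membership, so dim probes that are higher with an siRNA can enter more readily, which was not tested either. With no filter, 1441 of 2778 probes were higher and 1337 lower, with a median of 0.009 (0 for all probes). With a filter on all 9 arrays, 303 of 532 members were higher and 229 lower, with a median of 0.029 (−0.009 for all probes).

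The lean varied with brightness, in the members as in all tested probes. The members were split into 4 classes of 210 by their mean level. The share that was higher was 60.0%, 71.0% and 61.9% in the 3 dimmer classes and 42.9% in the brightest, above a level of 6.77. All tested probes within the same limits of brightness gave 62.1%, 66.8%, 62.7% and 41.1%. After normexp correction and quantile normalization the lean was absent, with 408 members higher and 432 lower and a median of −0.004. The classes then gave 48.1%, 55.2%, 51.0% and 40.5%, against 50.7%, 51.6%, 49.3% and 47.3% of all tested probes. The lean stayed under the other normalizations. It was 524 higher and 316 lower (median 0.103) with scaling to the 75th percentile. VSN on the processed signal gave 479 and 361 (0.056), and the table normalized by the authors 496 and 344 (0.041). The other custom probes leaned in the same way under VSN, with 59.4% higher among those with an Ensembl name only and 60.8% among those with an assembled name only. From the dimmest to the brightest class 0, 6, 4 and 10 members were called with the replicate number, the last being 4.76% of its class. Of all tested probes in these classes 1.04%, 2.03%, 3.4% and 3.01% were called. The brightest class has no upper limit and holds 19603 of all tested probes, so brightness is not matched within it.

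None of the 20 brightest members passed after adjustment in limma with or without the replicate number, although 11 and 8 of them had an unadjusted p under 0.05. Of the 840 members, 201 had such a p with the replicate number, a fit in which the share of all tested probes was not counted. Without the replicate number 56 had (6.67%), beside 7.37% of all tested probes. Probes as bright as these 20 were not counted either, so 201, 11 and 8 cannot be set against the array. The 20 brightest members, at a mean level of at least 10.78, were lower in 16 cases and higher in 4, with a median change of −0.28 and a smallest adjusted p of 0.0562. Of all tested probes above a level of 6.77, 41.1% were higher. That range is wider and reaches dimmer probes than these 20 members, so brightness is not matched. ENST00000417692 (TCONS_00002891, probe CUST_13143_PI427704219) had the brightest spot, at 15.38, 14.85 and 15.13 in the control samples, 14.75, 14.71 and 14.81 with siRNA1, and 14.23, 14.75 and 14.53 with siRNA2. All siRNA arrays were below all control arrays, but the distance was −0.89 in replicate 1 and −0.12 in replicate 2, and the change of −0.49 ± 0.143 had an adjusted p of 0.0918.

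The next brightest were ENST00000449154, ENST00000458044, ENST00000412800 and ENST00000511579, with changes of −0.27, −0.10, −0.44 and −0.47 and adjusted p-values of 0.196, 0.631, 0.148 and 0.106. In ENST00000449154 and ENST00000511579 the siRNA arrays also lay below all control arrays, in the others they overlapped. For ENST00000412800, replicate 1 differed from its control by −0.82 and replicate 2 by 0.02.

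For some transcripts a second probe allowed the measurement to be repeated on the same RNA. An Agilent catalogue probe named for the same Ensembl transcript existed in 99 cases, for 92 of the 2789 transcripts. Of these pairs 22 were detected on at least 3 arrays with each probe, 11 with the custom probe only, 19 with the catalogue probe only and 47 with neither. In the 22 pairs the change with both siRNAs had the same sign in 16, with a Pearson correlation of 0.62 and a Spearman correlation of 0.41 across pairs, which share their samples and target and are not independent replicates. The median distance between the changes of a pair was 0.14. In 6 pairs the signs were opposite, as for ENST00000439955, with 0.10 ± 0.107 for the custom and −0.38 ± 0.171 for the catalogue probe. In ENST00000419347 the changes were 0.25 ± 0.11 and −0.12 ± 0.0814. None of these changes passed in limma with the replicate number (adjusted p = 0.622, 0.234, 0.22 and 0.436). The catalogue probe of ENST00000439955 was at 7.87 in control replicate 1 and at 6.4 in control replicates 2 and 3. Both transcripts were named after their values were seen.

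One pair was called with each probe, ENST00000503568 (TCONS_00009703). The custom probe CUST_13640_PI427704219 was at 7.05, 7.95 and 7.56 in the control samples, 7.16, 8.25 and 8.13 with siRNA1, and 7.54, 8.50 and 8.14 with siRNA2, a change of 0.44 ± 0.0953 (adjusted p = 0.0449). The catalogue probe A_33_P3370434 was at 7.02, 7.88 and 7.43, at 7.31, 8.58 and 7.97, and at 7.43, 8.64 and 7.90, a change of 0.53 ± 0.0947 (adjusted p = 0.0258). The 2 probes followed each other from replicate to replicate, with replicate 1 lowest in each group. Without the replicate number the adjusted p was 0.782 and 0.756. ENST00000434321 had the same direction with each probe without passing the test, with changes of −0.39 ± 0.116 for the custom probe and −0.45 ± 0.115 for the catalogue probe (adjusted p = 0.0952 and 0.0694).

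No transcript was represented by more than 1 member, so members could be related to each other only through their assembled numbers, which the assembly program gives in sequence. In 230 pairs of members with consecutive numbers the changes with both siRNAs had the same sign in 144 (62.6%), with a correlation of 0.34 across pairs. It was 48.9% in 262 pairs that lie 2 to 5 numbers apart and 49.5% in 319 pairs that lie 6 to 50 apart, with correlations of 0.05 and 0.04. Consecutive numbers can be transcripts of one locus, so that their probes may share sequence or target, and no positions were used here to separate these cases.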

How the data were processed

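RNA of 9 ALL-SIL samples was measured on one-colour Agilent arrays. The authors read them with Feature Extraction (version 9.1 per the labels, 10.5.1.1 per the file headers) and deposited the intensity of each spot, not normalized between arrays, with flags of 0 or 1 (other values) for spots well above background or outlying. They also deposited a log2 table normalized with VSN, used as an alternative. Here the VSN model was fitted to the median intensity without background subtraction (quantile 0.9, 7 iterations), outlier spots were left out and repeated spots averaged. No spot was saturated. Tests covered the 33595 probes that 3 or more arrays gave as well above background, with limma 3.58.1 in R 4.3.3 (group and replicate number; all 9 arrays; Benjamini-Hochberg, 0.05), and the scripts were tested on simulated data. The methods state no replicate term. Replicate numbers come from the labels. Deviations from group means over all tested probes correlated at 0.31 to 0.75 in the 9 same-numbered pairs and at −0.57 to 0.13 in the 18 others. Over the members the ranges were 0.21 to 0.67 and −0.57 to 0.30. Deviations cancel within a group, so positive values in the same-numbered pairs push the others down. Arrays have no depth: their number and the signal over background limit precision. Members and lists were chosen with earlier results of these data known. Named members were the 8 largest called rises and falls moving alike under each siRNA and replicate number and detected on every array of the brighter group, the 5 brightest, and those called between siRNAs. Lists by gene symbol were not used, as no symbol matched. Alternatives were 4 other normalizations, other filters, no replicate term, the slide as a block, an intensity trend with robust fit, and leaving out arrays or replicates. Some genes of other lineages are not reported here.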

Additional observations from a re-analysis of the deposited data

Results flagged for a closer look

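The 2 siRNAs had different effects on ENST00000511677 by a test of the difference itself. The difference between siRNA2 and siRNA1 was 1.54 ± 0.119 on the log2 scale (adjusted p = 0.0048 in limma with the replicate number, and 0.0515 without it), with −1.48 for siRNA1 and 0.06 for siRNA2. The siRNA1 level was the lowest of the 3 in each of the 3 replicates. The call was kept in each fit that left out 1 array and was lost without the replicate number, with VSN on the processed signal (difference 2.14, adjusted p = 0.0659), with the processed signal scaled to the 75th percentile (2.27, 0.108) and without replicate 2 (1.68, 0.142). Over the alternatives the difference was 0.86 to 2.27, the lowest with normexp and quantile normalization. Outlying samples were not looked for in groups of 3.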

How the results depend on the processing

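The number of called members followed the processing closely, whereas no named member changed direction. For the called rises and falls the latter was largely fixed, as they were chosen to move alike under each siRNA and replicate number. Fits that changed only the block, the filter or the trend kept the size of a change as it was. Of 372 values of named members under the alternatives, 129 lost their call, 1 gained one and 242 kept their side of the threshold. Counts are given for both siRNAs, siRNA1, siRNA2 and siRNA2 against siRNA1, where they were 20, 8, 9 and 1. Without the replicate block they were 0, 0, 0 and 0. With the slide as a block they were 0, 1, 0 and 1. With VSN on the processed signal they were 8, 2, 4 and 0, and with that signal scaled to the 75th percentile 6, 1, 3 and 0. With no filter, over 2778 probes with a value on every array or detected on 3, they were 1, 2, 1 and 1, and with a filter on all 9 arrays, over 532 members, 31, 11, 18 and 1. With an intensity trend and robust fit they were 32, 16, 20 and 1. With normexp and quantile normalization (18, 6, 12 and 1) and the deposited table (17, 8, 8 and 1) they stayed within 1.5 times. Leaving out 1 array gave 1 to 27, 1 to 14, 1 to 17 and 1, and leaving out a replicate number 0 to 15, 1 to 5, 0 to 8 and 0 to 1. For both siRNAs the called share of the members stood beside that of all tested probes at 0.952% and 0.848% with VSN on the processed signal, 0.714% and 0.887% with scaling, 2.14% and 3.82% with normexp, 2.02% and 2.55% in the deposited table, 0.036% and 0.159% with no filter, 5.83% and 5.55% with the filter on all 9 arrays, and 3.81% and 5.57% with the trend. For siRNA1 these shares were 0.238% and 0.122% with VSN on the processed signal, 0.119% and 0.113% with scaling, and 0.714% and 1.38% with normexp. They were 0.952% and 0.78% in the deposited table, 0.072% and 0.0596% with no filter, and 1.9% and 2.55% with the trend. With the filter on all 9 arrays, 11 of 532 members and 587 of 27664 tested probes were called for siRNA1. For siRNA2 the shares were 0.476% and 0.277% with VSN on the processed signal, 0.357% and 0.164% with scaling, and 1.43% and 2.71% with normexp. They were 0.952% and 1.41% in the deposited table, and 0.036% and 0.0385% with no filter. With the filter on all 9 arrays they were 3.38% and 3.4%, and with the trend 2.38% and 3.69%. The median change for both siRNAs was −0.004 to 0.103. The detected share was 43.7% for at least 1 array and 19.1% for all 9, and 29.8% to 31.5% without a replicate number. Chosen after seeing the data, not counting outlier spots as detected gave 838 members and 20 calls. The median level of control, siRNA1 and siRNA2 was 4.96, 5.12 and 5.09 with VSN on the processed signal, 4.82, 5.05 and 4.98 with scaling, 6.53, 6.55 and 6.55 with normexp, 5.76, 5.88 and 5.82 in the deposited table, and 6.33, 6.42 and 6.39 for the filter on all 9 arrays. The causes were not tested.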
